A study of Mus musculus with 6 samples.

Results

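The genes described here are 10 members of the cytosolic heat shock system, taken by gene symbol from a list that names the transcription factor Hsf1, the HSP70 chaperones Hspa1a, Hspa1b and Hspa8, the HSP110 protein Hsph1, the HSP90 chaperones Hsp90aa1 and Hsp90ab1, the HSP40 protein Dnajb1 and the small heat shock proteins Hspb1 and Cryab. All 10 were found among the 24346 gene symbols measured, and all 10 had a mean of at least 0.5 FPKM (fragments per kilobase, a level scaled to gene length and library size), the level required for testing. RNA-seq libraries came from retinas of mice at postnatal day 12. Both groups lack Nrl (Nrl-/-), the transcription factor of rod fate, so their photoreceptors are largely cone-like and neither group is a wild-type retina. The 3 control libraries were Panky+/-;Panky-like+/-;Nrl-/-, so the controls already carry 1 mutant copy of each targeted gene. The 3 triple-deficient libraries were Panky-/-;Panky-like-/-;Nrl-/-. Panky is Ankrd33, an ankyrin repeat co-repressor of photoreceptors, and Panky-like is taken to be its paralog Ankrd33b, which the labels do not state. The design text speaks of littermate pairs, but no label ties a library to an animal or says which libraries form a pair.

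Heat shock proteins keep other proteins folded. HSP70 binds unfolded stretches with the help of J-domain partners such as Dnajb1 and of the exchange factor Hsph1, HSP90 finishes the folding of kinases and receptors, and small heat shock proteins hold unfolding proteins in solution. When misfolded proteins accumulate, HSF1 is released from its chaperone partners and binds heat shock elements, repeats of the bases GAA and TTC in alternating orientation, in the promoters of these genes. In the retina, constitutive chaperones serve the heavy protein synthesis of photoreceptors, and the inducible members are used as signs of proteotoxic stress. The comparison therefore asks whether loss of both targeted genes came with a heat shock response.

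None of the 10 genes passed the test between the genotypes over all genes tested (limma with Benjamini-Hochberg adjustment, smallest adjusted p = 0.946), where 0.0279% of all genes were called. At an unadjusted p below 0.05 there were also 0 of 10, where 5.09% of all genes lay below that level. The control and triple-deficient libraries overlapped for all 10 genes. Over all genes tested, 10.5% had groups that did not overlap, and 0 of 10 does not set the members apart from that share. Of the members 4 had a change above 0 and 6 below 0, with a median of -0.014 on the log2(FPKM + 1) scale, against a median of 0.0034 over all 14325 genes tested. Changes are always triple-deficient minus control, and on this scale those of low genes are understated. Because the tissue is bulk retina, a smaller number of cells of a type and less RNA per cell cannot be told apart.

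The targeted genes were lower in the triple-deficient libraries. Ankrd33b fell from 33.8 ± 1.45 FPKM to 1.5 ± 0.265 FPKM (SD, n = 3; log2 change -3.80, limma adjusted p = 4.56e-07), and Ankrd33 fell from 106 ± 2.97 to 55.6 ± 4.66 FPKM (-0.93, adjusted p = 0.00274). Estimated from the steps between low values, the libraries held about 18.1 M fragments (triple-deficient 3) to 27.1 M fragments (triple-deficient 1). All 9 cone markers were measured, at means of 53.5 to 1604 FPKM. Of 15 lens markers 6 were tested, and the summed level of all 15 was 25.9 FPKM in control 1 against 5.40 to 6.30 FPKM in the other 5 libraries. Triple-deficient 3 stood apart in base composition. Across genes, which are not independent, its deviations from the mean of the libraries correlated with transcript GC content at Spearman -0.59. In the other libraries the correlation was 0.07 to 0.30. The log2 change between genotypes, which includes triple-deficient 3, correlated with GC content at Spearman -0.36.

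The levels of the members, per kilobase, differed widely. Hspa8, the constitutive HSP70, led at a mean of 759 FPKM over the 6 libraries and was number 16 of all genes measured. Hsp90aa1 followed at 460.0 FPKM and Hsp90ab1 at 392 FPKM, numbers 64 and 83. Hsph1 at 45.5 FPKM and Cryab at 41.2 FPKM came next, then Hsf1 at 18.6 FPKM and Dnajb1 at 17.6 FPKM. The lowest were Hspb1 at 4.74 FPKM, Hspa1a at 2.31 FPKM and Hspa1b at 1.75 FPKM. In all, 4 pairs of neighbours in this order had overlapping ranges over the 6 libraries, namely Hsph1 and Cryab, Hsf1 and Dnajb1, Hspb1 and Hspa1a, and Hspa1a and Hspa1b. Within each library the order of the latter 3 pairs was nonetheless the same 6 times out of 6, and that of Hsph1 over Cryab 5 times. Together the members held between 0.419% and 0.477% of the summed FPKM of a library.

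**Figure D1:**
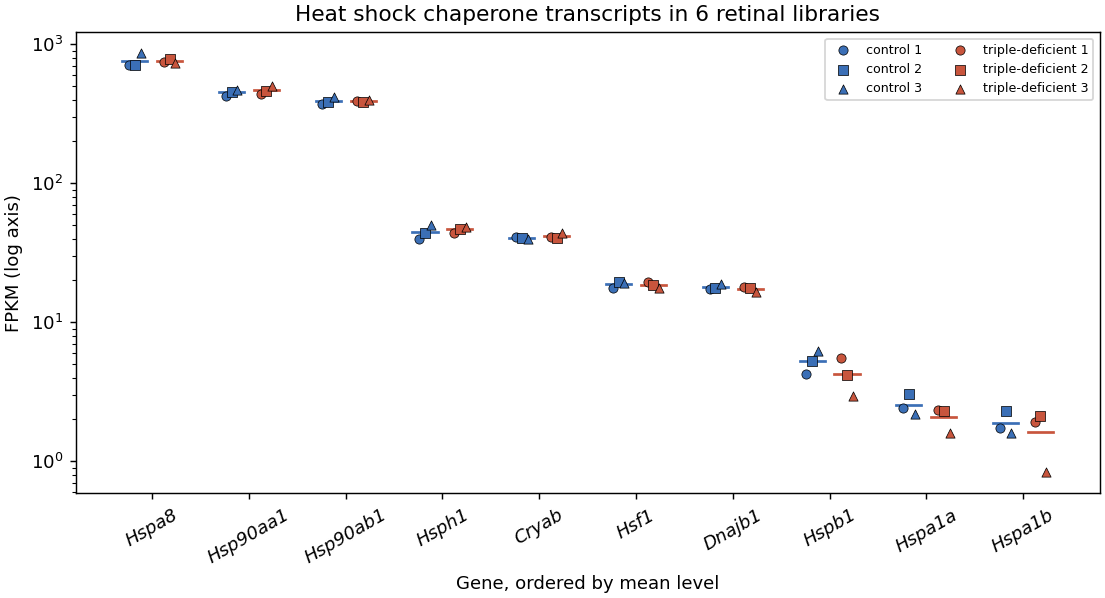
FPKM of the 10 genes on a log axis in each library, control in blue and triple-deficient in red, with marker shapes for library numbers and bars at group means. The groups overlap for every gene, and Hspb1, Hspa1a and Hspa1b are lowest in triple-deficient 3.

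Hsf1, the master regulator of the response, is itself controlled mainly at the protein level. It stood at 17.8, 19.5 and 19.0 FPKM in control libraries 1, 2 and 3, and at 19.4, 18.5 and 17.5 FPKM in triple-deficient libraries 1, 2 and 3. The highest and the lowest value were only 1.11-fold apart, and the groups overlapped. The fitted change was -0.021 on the log2 scale (SE 0.058, 95% confidence interval -0.15 to 0.11, limma adjusted p = 0.983). Hsf1 lies on chromosome 15 of GRCm38 (76477362 to 76501155), the chromosome that also carries both targeted genes, 24.6 Mb from Ankrd33 and 45.1 Mb from Ankrd33b.

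The stress-inducible HSP70 genes Hspa1a and Hspa1b are single-exon copies of one another on chromosome 17 (34969359 to 34972156 and 34956429 to 34959238, GRCm38), 10.1 kb apart. Of the 50-base windows of their longest annotated transcripts, 60.4% for Hspa1a and 62.3% for Hspa1b also occurred in a transcript of another gene, mostly in the other copy. How the authors assigned fragments that match both is not given in the sources used here, so the split between the copies is uncertain. Their sum does not depend on that split, but it would be too low if such fragments were dropped. The 250 bases upstream of the transcript starts show how alike the copies are. They are shown 5′ to 3′ in the direction of transcription, from RefSeq (GRCm38.p6), with GAANNTTC, a pair of facing heat shock units, in capitals.
Hspa1a, chr17:34972157-34972406, minus strand: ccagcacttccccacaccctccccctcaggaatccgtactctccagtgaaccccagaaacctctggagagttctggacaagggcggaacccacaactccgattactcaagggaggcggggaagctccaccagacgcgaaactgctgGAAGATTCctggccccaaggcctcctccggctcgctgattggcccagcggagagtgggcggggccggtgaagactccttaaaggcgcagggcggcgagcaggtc
Hspa1b, chr17:34959239-34959488, minus strand: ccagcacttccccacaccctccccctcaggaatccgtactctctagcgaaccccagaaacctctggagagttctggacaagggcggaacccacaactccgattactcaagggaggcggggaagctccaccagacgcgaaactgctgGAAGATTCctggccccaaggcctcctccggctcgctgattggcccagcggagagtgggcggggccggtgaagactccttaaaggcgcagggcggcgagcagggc
The windows differ at 3 of 250 positions, counted from 1 at the 5′ end, which are C44T, T47C and T249G from Hspa1a to Hspa1b. Both hold GAAGATTC, 104 to 97 bases upstream of the start.

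Transcripts of both inducible copies were scarce. Hspa1a was at 2.41, 3.05 and 2.19 FPKM in controls 1 to 3 and at 2.33, 2.28 and 1.59 FPKM in triple-deficient libraries 1 to 3. Hspa1b was at 1.75, 2.3 and 1.6 FPKM in the controls and at 1.92, 2.12 and 0.832 FPKM in the triple-deficient libraries. For both copies control 2 was the highest and triple-deficient 3 the lowest library, and the other triple-deficient libraries lay within the range of the controls. By the estimated depth, 42.3 (triple-deficient 3) to 160 fragments (control 2) stand behind the values of Hspa1b, which limits their precision.

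The sum of the copies averaged 4.43 ± 0.815 FPKM among controls and 3.69 ± 1.10 FPKM among triple-deficient libraries (SD, n = 3). The log2 change was -0.21 for Hspa1a (SE 0.128, 95% confidence interval -0.51 to 0.081, limma adjusted p = 0.946). For Hspa1b it was -0.17 (SE 0.197, interval -0.62 to 0.29, adjusted p = 0.959). Without triple-deficient 3 these became -0.096 and 0.074, so the direction for Hspa1b rests on that library. In FPKM + 1, the upper bounds of the 2 intervals were 1.06-fold and 1.22-fold of the control level.

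Hspa8, the constitutive partner that folds new proteins and uncoats clathrin vesicles, was at 710, 713 and 863 FPKM in controls 1 to 3 and at 747, 780 and 739 FPKM in triple-deficient libraries 1 to 3. Control 3 was the highest library, and all triple-deficient values lay between the controls. The fitted log2 change was -0.0079 (SE 0.082, 95% confidence interval -0.20 to 0.18, limma adjusted p = 0.997). Within each library Hspa8 exceeded the sum of Hspa1a and Hspa1b by 133-fold (control 2) to 305-fold (triple-deficient 3). The log2 ratio of the inducible sum to Hspa8 differed between the genotypes by -0.29 (two-sided exact permutation p = 0.40, adjusted over 3 ratios p = 0.50), and 3 against 3 libraries cannot give a p below 0.10. Without triple-deficient 3 the difference was -0.028. As for Hspa8 itself, 51.4% of its 50-base windows recur in transcripts of 13 other annotated genes, so its level is uncertain by the share of fragments assigned to those copies. The ratio to the sum of Hspa1a and Hspa1b therefore depends on how shared fragments were handled for all 3 genes.

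Hsph1 is the exchange factor that releases ADP from HSP70, and Dnajb1 is the J-domain protein that delivers substrates to it. Hsph1 was at 39.8, 43.6 and 49.8 FPKM in controls 1 to 3 and at 44.1, 47.2 and 48.5 FPKM in triple-deficient libraries 1 to 3. The lowest and the highest library were both controls. Dnajb1 was at 17.3, 17.5 and 18.8 FPKM in the controls and at 17.9, 17.5 and 16.6 FPKM in the triple-deficient libraries. Neither passed the test. The fitted log2 change was 0.073 for Hsph1 (SE 0.080, interval -0.11 to 0.26, limma adjusted p = 0.959) and -0.041 for Dnajb1 (SE 0.055, interval -0.17 to 0.084, adjusted p = 0.961). The Hsph1 value rested on control 1, being -0.0017 without it and 0.16 without control 3, and that of Dnajb1 was -0.0057 without control 3. Among 10194 other genes that averaged 5 FPKM or more, those whose deviations over the 6 libraries came closest to those of Hsph1 were Idh1 (cytosolic isocitrate dehydrogenase), Tagln2 (an actin-binding protein) and Selk (a selenoprotein of the endoplasmic reticulum), at mean absolute differences of 0.020, 0.020 and 0.026 on the log2 scale. Of the other members at that level, Hsp90aa1 came nearest at number 369 of that order, and Hspa8 was number 407.

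The HSP90 pair consists of Hsp90aa1, the more stress-responsive form, and Hsp90ab1, the constitutive one. Hsp90aa1 was at 428, 455 and 472 FPKM in controls 1 to 3 and at 440, 459 and 505 FPKM in triple-deficient libraries 1 to 3. Hsp90ab1 was at 374, 382 and 420.1 FPKM in the controls and at 392, 384 and 401 FPKM in the triple-deficient libraries. For each gene control 1 was the lowest library, and the groups overlapped. The fitted log2 change was 0.050 for Hsp90aa1 (SE 0.067, interval -0.10 to 0.20, limma adjusted p = 0.961) and 0.0021 for Hsp90ab1 (SE 0.058, interval -0.13 to 0.13, adjusted p = 0.999).

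In every library Hsp90aa1 was above Hsp90ab1, by 1.12-fold to 1.26-fold. The log2 ratio was 0.21 ± 0.043 in controls and 0.25 ± 0.084 in triple-deficient libraries (SD, n = 3), a difference of 0.048 (two-sided exact permutation p = 0.50, adjusted p = 0.50). The difference was 0.0079 without triple-deficient 3 and 0.092 without triple-deficient 1. For Hsp90aa1, 58.5% of 50-base windows recur in transcripts of 4 other annotated genes, against 4.49% for Hsp90ab1, so the ratio also depends on how such fragments were assigned.

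**Figure D2:**
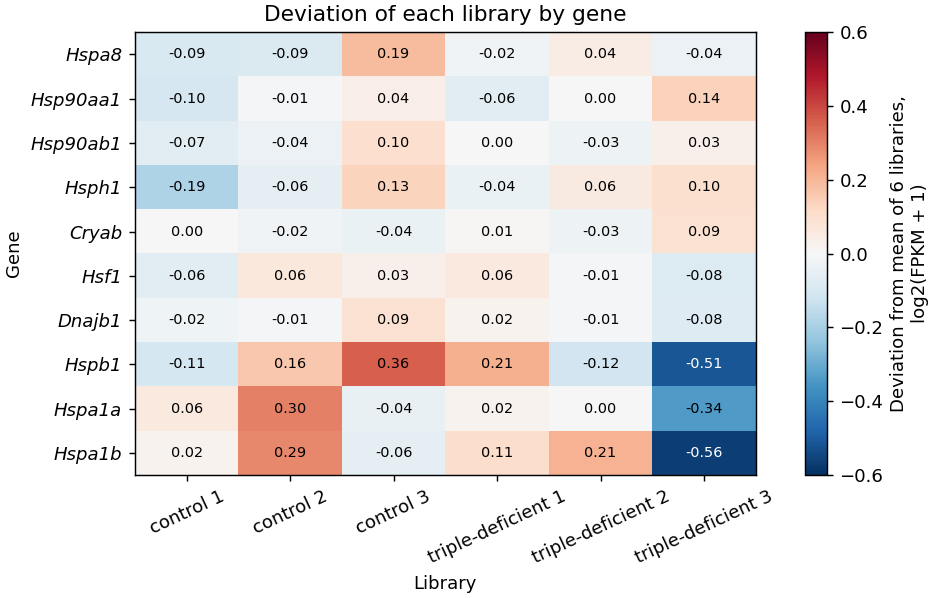
Deviation of each library from the mean of all 6, on the log2(FPKM + 1) scale, with 1 row per gene and 1 column per library. Control 3 is high for Hspa8, Hsph1 and Hspb1, and triple-deficient 3 is low for Hspb1, Hspa1a and Hspa1b and high for Hsp90aa1.

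Hspb1, the small heat shock protein known as HSP25 in mice, is induced by stress in glia and neurons. Its upstream window from RefSeq (GRCm38.p6) is shown 5′ to 3′ because, unlike those of the Hspa1 copies, it holds 2 matches to GAANNTTC, in capitals, at 117 to 110 and 97 to 90 bases before the start.
Hspb1, chr5:135887669-135887918, plus strand: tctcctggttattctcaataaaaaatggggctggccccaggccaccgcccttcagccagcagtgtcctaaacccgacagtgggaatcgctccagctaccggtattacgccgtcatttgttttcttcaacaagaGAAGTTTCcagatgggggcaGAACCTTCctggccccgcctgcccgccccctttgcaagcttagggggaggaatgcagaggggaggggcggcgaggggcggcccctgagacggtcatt
Hspb1 was at 4.24, 5.30 and 6.23 FPKM in controls 1 to 3 and at 5.54, 4.2 and 2.95 FPKM in triple-deficient libraries 1 to 3. Triple-deficient 3 was the lowest and control 3 the highest library, and triple-deficient 1 lay within the controls. The log2 change was -0.28 (SE 0.183, 95% confidence interval -0.70 to 0.14, limma adjusted p = 0.946), the largest in size among the 10 genes. It was -0.090 without triple-deficient 3, -0.14 with the trends of GC content and length removed and -0.45 without triple-deficient 1. Its transcript shares 51.7% of its 50-base windows with 1 annotated pseudogene.

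Cryab, alpha B-crystallin, is a small heat shock protein of lens, glia and muscle. It was at 41.1, 40.5 and 40.0 FPKM in controls 1 to 3 and at 41.3, 40.3 and 43.9 FPKM in triple-deficient libraries 1 to 3. This was the steadiest member, with 1.10-fold between its highest and lowest library. The fitted log2 change was 0.044 (SE 0.047, 95% confidence interval -0.064 to 0.15, limma adjusted p = 0.959). Lens transcripts did not move with it. Cryaa, the lens partner of Cryab, was at 4.61 FPKM in control 1 and at most 0.129 FPKM elsewhere, while Cryab in control 1 lay within the range of the other libraries, and its change without control 1 was 0.053. Without triple-deficient 3, its highest library, the change was 0.0099. The log2 ratio of Hspb1 to Cryab differed between the genotypes by -0.39 (two-sided exact permutation p = 0.50, adjusted p = 0.50), and by -0.12 without triple-deficient 3. Hspb2, a muscle-type small heat shock protein, lies within the annotated span of Cryab on chromosome 9 (50751072 to 50752354, within 50745951 to 50756636). It averaged 0.445 FPKM, below the level required for testing, with 1.11 FPKM in triple-deficient 2 and 0.228 to 0.379 FPKM in the other libraries. The strand setting of the authors' counting is not given in the sources used here, so fragments of overlapping genes may not be separable.

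**Figure D3:**
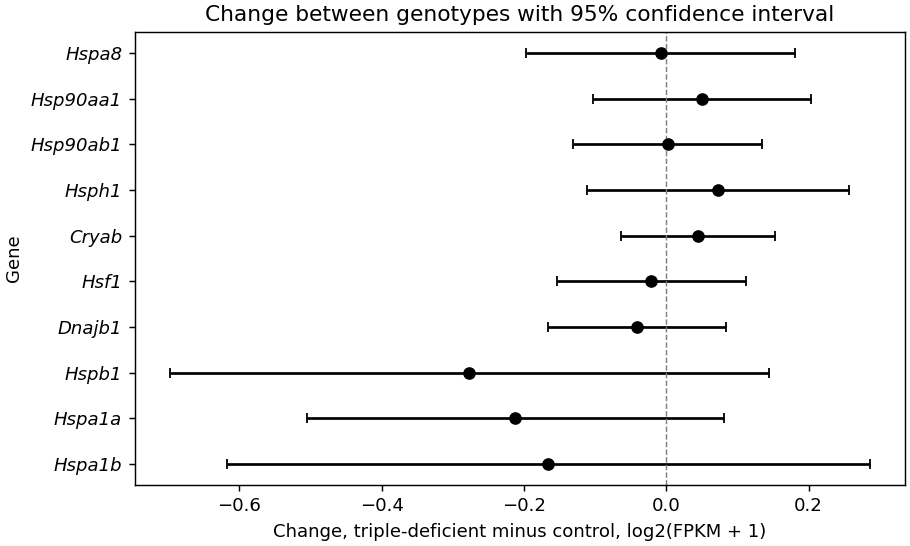
Log2 change of each gene between genotypes, with points for the limma estimate and bars for its 95% confidence interval. Every interval includes 0, and those of Hspb1, Hspa1a and Hspa1b are the widest.

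Precision differed among the members. For the 7 genes above 15 FPKM the intervals lay between -0.20 and 0.26, whereas for Hspb1, Hspa1a and Hspa1b they reached from -0.70 to 0.29. The residual SD on the log2 scale was 0.305 for Hspb1 and 0.322 for Hspa1b. These were larger than in 97.9% and 95.7% of tested genes whose mean log2 level lay within 0.5 of theirs. For Cryab it was 0.046, above that of only 20.4% of such genes. Of the 10 genes, 5 had their lowest value in triple-deficient 3 and 5 their highest in control 3.

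Deviations in triple-deficient 3 were set beside transcript base composition. Hspb1, Hspa1a and Hspa1b had the most GC-rich transcripts of the members, at 61.7%, 59.0% and 58.1% GC, and deviated by -0.51, -0.34 and -0.56 in that library. Tested genes within 1 percentage point of the same GC content had median deviations there of -0.20, -0.14 and -0.12. The 10% lowest of them lay at or below -0.38, -0.30 and -0.27, so all 3 members deviated further than that. Those genes were not matched on level, and the 3 members are low, so the comparison cannot say how unusual their deviations are. Hsp90aa1, the member poorest in GC at 43.7%, deviated by 0.14, where genes of like GC content had a median of 0.067. Cryab at 54.4% GC deviated by 0.091 against a median of -0.054. Hspa8 at 46.0% GC deviated by -0.035 against 0.042, and Hsp90ab1 at 51.0% GC by 0.032 against -0.0071. Cryab, Hspa8 and Hsp90ab1 thus lay on the other side of 0 from genes of like composition. How much of the members' deviations comes from base composition was not tested. With the trends of GC content and length removed, the log2 changes of Hspa1a and Hspa1b were -0.15 and -0.12. Immediate-early genes, which respond to handling within minutes, summed to 298 to 451 FPKM in controls and 300.4 to 433 FPKM in triple-deficient libraries. They were highest in control 3, where Hspa8, Hsph1, Hsp90ab1, Dnajb1 and Hspb1 were also highest, and next highest in triple-deficient 1, at a summed 433 FPKM, where 0 members were highest. Of the 20 immediate-early genes tested, 0 passed over all genes and 5 had an unadjusted p below 0.05, where 5.09% of all genes did, with 7 changes above 0 and 13 below 0. Their part in the chaperone levels was not tested.

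**Figure D4:**
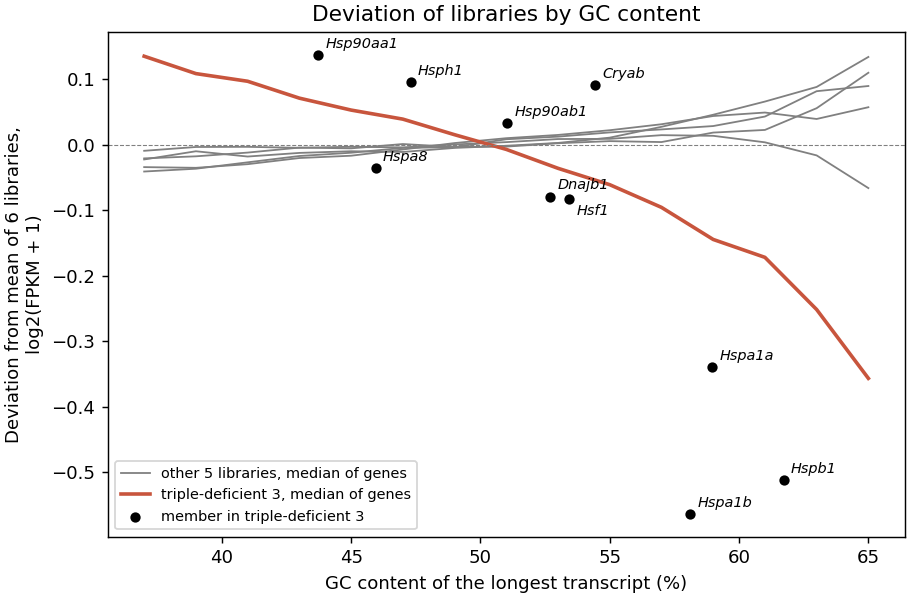
Median deviation from the mean of the 6 libraries, log2(FPKM + 1), of all tested genes in bins of transcript GC content, with triple-deficient 3 in red and the other libraries in grey. Black points are the members in triple-deficient 3. Hspa1a, Hspa1b, Hspb1, Hspa8, Hsf1 and Dnajb1 lie below the red line, and Cryab, Hsph1, Hsp90aa1 and Hsp90ab1 lie above it.

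Heat shock elements were sought in the 250 bases upstream of RefSeq starts, which were found for 5 of the 10 genes. GAANNTTC, its own reverse complement, occurred in Hspa1a, Hspa1b and Hspb1 and in 6.69% of all 32851 windows. TTCNNGAA, the other arrangement of the same pair and likewise its own reverse complement, occurred in Hsph1, 33 to 26 bases before the start farther upstream, and in 7.17% of all windows. The 3-unit motif GAANNTTCNNGAA, searched on both strands and containing both pairs, was in none of the 5 and in 0.466% of all windows. Only exact GAA and TTC units were counted. Elements with altered units were not sought, so these matches do not give the full number or length of elements in a window. Dnajb1 held none of these letters in its windows. ATTGG, the CCAAT box on the other strand, was in the windows of Hspa1a, Hspa1b, Hsph1 and Dnajb1 and in 33.8% of all windows.

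Other chaperone genes, in 9 lists with 110 genes, were examined for the wider network. Of the 105 genes tested, none rose and none fell over all genes (limma, smallest adjusted p = 0.905), and 3 lay at an unadjusted p below 0.05, or 2.86%. Changes were above 0 for 54 and below 0 for 51, with a median of 0.0012.

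Among heat shock factors and regulators (10 tested, median 0.0010), Hsf2, a developmental heat shock factor, averaged 20.2 ± 0.227 FPKM among controls and 21.5 ± 1.66 FPKM among triple-deficient libraries. The groups did not overlap for Hsf2, as for 10.5% of all genes tested. Hsbp1l1, a paralog of the HSF1-binding protein, was at 33.6 ± 2.53 and 36.9 ± 3.49 FPKM. Hsf4, the lens heat shock factor, was at 0.667 ± 0.236 and 0.840 ± 0.281 FPKM. Neither these nor any other gene of the list had an unadjusted p below 0.05.

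Other HSP70 and HSP110 genes had a median of 0.046 over 8 tested, 7 of them above 0. Hspa12a, a distant HSP70 relative of neurons, averaged 58.4 ± 1.41 FPKM among controls and 60.9 ± 0.937 FPKM among triple-deficient libraries. Its endothelial counterpart Hspa12b was at 3.08 ± 0.316 and 2.75 ± 0.223 FPKM, and Hspa13, a microsomal member, at 15.6 ± 0.278 and 16.3 ± 0.751 FPKM.

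HSP70 co-chaperones had a median of -0.046 over 11 tested, 8 of them below 0. Stub1, the ubiquitin ligase CHIP that marks chaperone clients for degradation, was at 65.7 ± 0.868 and 60.6 ± 3.15 FPKM. Its log2 change of -0.12 had an unadjusted p of 0.0439 and a limma adjusted p of 0.943, and it was -0.0044 with the trends of GC content and length removed. Bag2, which inhibits CHIP, was at 6.56 ± 0.248 and 5.84 ± 0.383 FPKM and Bag5, an exchange factor, at 18.2 ± 0.486 and 19.5 ± 0.944 FPKM. For Stub1 and Bag2 every triple-deficient library lay under every control, as for Dnajc6, Nudc, Pfdn5, Clpp and Hspe1 in the lists below. For Hspa12a, as for Hsf2, every triple-deficient library lay above every control. Groups did not overlap for 10.5% of all genes tested, and the genes named here had the smallest p of their lists.

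J-domain proteins were tested for 17 genes, with a median of -0.0082 and intervals between -0.21 and 0.27. Dnajb6, which suppresses protein aggregation, averaged 98.6 ± 3.37 FPKM among controls and 94.1 ± 4.12 FPKM among triple-deficient libraries. Dnaja2, a main partner of HSC70, was at 63.1 ± 1.46 and 65.6 ± 1.66 FPKM, and Dnajc6, the clathrin-uncoating auxilin, at 59.6 ± 1.09 and 57.6 ± 0.934 FPKM.

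HSP90 co-chaperones had a median of -0.0057 over 16 tested. Nudc, a dynein-associated co-chaperone, was at 78.9 ± 2.81 and 71.5 ± 4.04 FPKM (log2 change -0.14, unadjusted p = 0.0303, limma adjusted p = 0.912). Sugt1, an adaptor of HSP90, was at 27.6 ± 1.01 and 30.1 ± 2.0 FPKM and Fkbp4, an immunophilin of steroid receptor complexes, at 128 ± 4.84 and 122 ± 3.08 FPKM. The most abundant gene of this list was Aipl1, a photoreceptor co-chaperone needed to assemble phosphodiesterase 6, at a mean of 520.5 FPKM.

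Of 8 other small heat shock proteins only 4 had the level required for testing, with a median of -0.074. Hspb11, a ciliary transport protein now also called Ift25, was at 28.3 ± 3.32 and 25.5 ± 1.62 FPKM, and Hspb8, the partner of Bag3 in autophagy, at 3.29 ± 0.325 and 3.38 ± 0.813 FPKM. Cryaa, given above, had a value of -0.83 on the log2 scale (SE 0.559, limma adjusted p = 0.946), which was -0.044 without control 1.

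The cytosolic chaperonin and prefoldin subunits had a median of 0.028 over 14 tested. Pfdn5, a prefoldin subunit, was at 164 ± 13.1 and 145 ± 3.52 FPKM (log2 change -0.17, unadjusted p = 0.0271, limma adjusted p = 0.905), Cct5 of the chaperonin ring at 113 ± 9.13 and 121 ± 4.51 FPKM, and Pfdn2, also of prefoldin, at 55.7 ± 3.73 and 52.6 ± 1.34 FPKM. Chaperones of mitochondria and of the endoplasmic reticulum had medians of -0.0084 (10 tested) and 0.011 (15 tested), with no gene at an unadjusted p below 0.05 in the limma fit.

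In mitochondria, the protease subunit Clpp was at 29.99 ± 1.06 and 28.2 ± 0.651 FPKM, the HSP10 gene Hspe1 at 55.4 ± 4.09 and 51.5 ± 0.787 FPKM, and Dnaja3, a J-domain protein, at 22.8 ± 1.28 and 24.1 ± 0.858 FPKM. In the endoplasmic reticulum, Dnajb11, a partner of BiP, was at 58.9 ± 4.62 and 55.9 ± 0.217 FPKM. Serpinh1, the collagen chaperone HSP47, was at 22.9 ± 2.27 and 21.2 ± 2.03 FPKM, and the BiP exchange factor Sil1 at 12.5 ± 0.345 and 11.8 ± 0.864 FPKM.

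**Figure D5:**
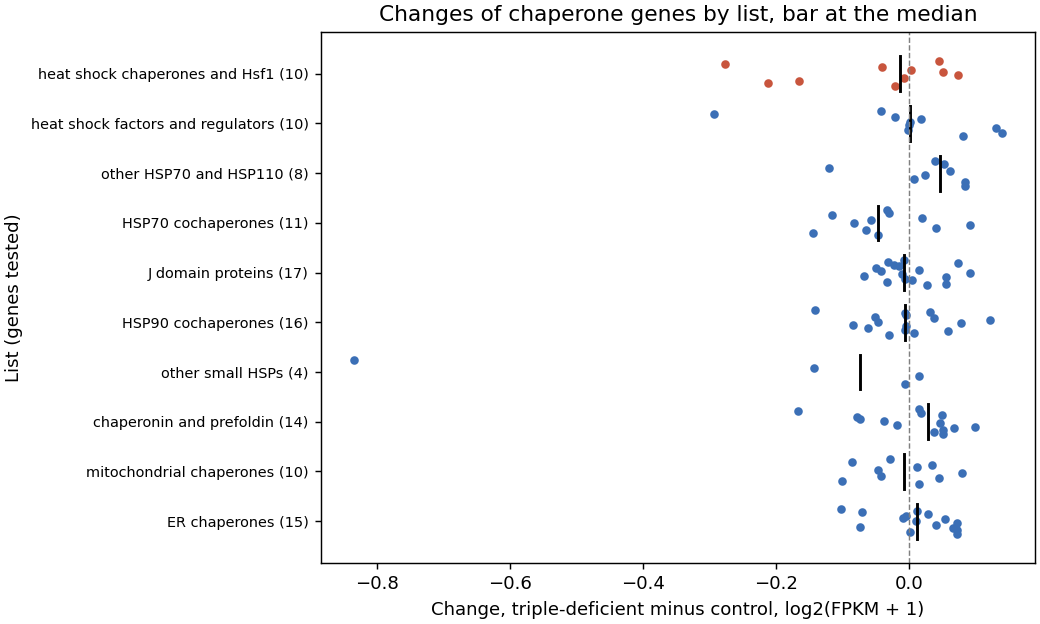
Log2 change of each tested gene, by list, with the heat shock chaperones and Hsf1 in red, other chaperone lists in blue and a black bar at each median. The point far to the left is the lens crystallin Cryaa, and all list medians lie between -0.074 and 0.046.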

How the data were processed

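Fresh retinas were lysed in TRIzol, and a stranded TruSeq mRNA kit gave the libraries, per the labels' protocols. The authors deposited 1 FPKM value per gene and library. TopHat2 2.1.1, Bowtie2 2.3.5.1, Cufflinks 2.2.1, Cuffdiff and the build mm10 are listed in the submitters' processing notes, with no roles or settings. The scaling between libraries is not given in the sources used here, but median-ratio factors of the deposited FPKM values were 1.002 to 1.003, so the libraries were on a common scale. Neither the annotation nor the handling of fragments with several matches is stated there.

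FPKM values were used as deposited. The 14325 genes averaging 0.5 FPKM or more were compared with limma 3.58.1 in R 4.3.3 on log2(FPKM + 1), with a mean-variance trend, no block, two-sided tests, Benjamini-Hochberg adjustment over all genes tested and a threshold of 0.05. Ratios of 3 gene pairs were compared with exact permutation tests in scipy 1.17.1. The fit was tested on simulated data with independent noise for each gene and library. Those data held no trend shared across genes, such as that with GC content, so they do not show how the fit handles one. No label ties libraries to separate animals, so p-values may cover only technical spread. The members, lists and tests were chosen with earlier results of these data known, and none is independent support for a pattern.

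Depth was estimated from whole-number ratios (up to 6, within 0.005 on the log2 scale) between values below 0.3 FPKM, and its absolute scale from 109 genes with 1 annotated transcript, so fragment numbers are approximate and no count model was fitted. GC content, length and shared 50-base windows were taken from the longest transcript per gene in GENCODE M21 (99.3% of tested genes had one), promoters and coordinates from RefSeq GRCm38.p6, the same assembly as mm10. Genes named besides the members are up to 3 genes with the smallest p in each chaperone list, the 3 genes nearest in pattern to Hsph1 (the member above 5 FPKM with the largest range), Hspb2 and the targeted genes. Aipl1, named as the most abundant gene of its list, lies outside this rule and was chosen after its value was seen. Alternatives covered the pseudocount, the filter, scaling, shrinkage, weights, the replicate number as a block, GC and length trends and leaving out each library.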

Additional observations from a re-analysis of the deposited data

How the results depend on the processing

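The number of members past the threshold stayed at 0 under all 18 alternatives, as did that of each of the 9 chaperone lists. Over all genes the number was 4, and it was 7 with no filter, 2 with robust shrinkage and 3 to 11 when 1 library was left out. The 10 members gave 180 values under these alternatives, of which 167 kept their sign and none passed the threshold. In limma 2 of them had an unadjusted p below 0.05 (Hsph1 without control 3 and Hspb1 without triple-deficient 1). The filter, the mean-variance trend, the shrinkage and the replicate block leave a fitted change as it is, so they could not turn a sign. Of the 13 values that turned, 3 did so with all libraries kept. The sign of Hspa8 turned with quantile normalization (0.0091) and with array quality weights (0.051), that of Hsp90ab1 with quantile normalization (-0.0094) and that of Hspb8 with array quality weights (-0.0023). Leaving out 1 library moved Hsf1 between -0.057 and 0.015, Hspa1b between -0.31 and 0.074, Hspa8 between -0.056 and 0.085, Hsph1 between -0.0017 and 0.16, Hsp90aa1 between -0.0057 and 0.093, Dnajb1 between -0.063 and -0.0057, Cryab between 0.0099 and 0.070 and Hsp90ab1 between -0.031 and 0.053. It moved Hspb8 between -0.13 and 0.11, Idh1 between -0.0088 and 0.12 and Selk between -0.011 and 0.11. The median of the members stayed between -0.056 and 0.015. The call of Ankrd33 was lost with no filter (adjusted p = 0.155).

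Same-numbered libraries deviated together only weakly, with correlations of 0.022, 0.11 and 0.067 over genes, and not every library was nearest its own number. Because the deviations were taken within groups of 3, such correlations cannot settle whether libraries form pairs. The numbers were not taken as pairs because no label says that they mark them. With the replicate number as a block, 4 genes passed the threshold, and 3 with the GC and length trends removed as well. The ratio differences of 0.048, -0.29 and -0.39 cannot change under the block, because each number occurs once per group. Their sign-flip p were 0.75, 0.25 and 0.75, and with 3 pairs that test cannot give a p below 0.25. For the ratio of Hspa1a plus Hspa1b to Hspa8, at that limit, every triple-deficient library lay below the control of the same number. About 42.3 to 225 fragments stood behind each value of Hspa1a, Hspa1b and Hspb1, and changes of these 3 genes within their intervals cannot be told from 0 with 3 libraries per group. The part of depth in the width of these intervals was not tested.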
